A study of Drosophila melanogaster with 20 samples.

Results

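Wild-type (WT) wings of Drosophila melanogaster taken 6 hours after puparium formation (+6 h) were compared with WT wings taken 6 hours before it (-6 h), across all genes of the deposited expression matrix. Puparium formation is the moment when the larva stops moving and its skin hardens into a case. The comparison used 4 of the 20 libraries of the series, 2 at +6 h and 2 at -6 h. These were chosen by their labels alone. All 4 carried wild-type chromosomes and no transgene, came from animals labelled female and raised at 25 °C, and held at least 60 wings each. Animals of the +6 h group were staged from white prepupae and those of the -6 h group were wandering third-stage larvae. The series also holds WT wings at -30 h, WT salivary glands at all 3 times, and EcR RNAi wings and glands at -30 and -6 h. No label tells if both libraries of a time were made from different animals, so each p-value reflects the spread between libraries only, and that spread may be technical.

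The steroid ecdysone drives the change of the larval wing disc into the adult wing. The hormone binds a pair of nuclear receptors, EcR and Usp, which switch on a first set of transcription factor genes, and those factors in turn switch later genes on and off. A large pulse at the end of larval life starts puparium formation. Hormone falls again in the prepupa, when genes such as ftz-f1 come on before the next pulse. Over these hours the wing disc turns inside out and spreads into a flat bilayer, and its cells pause in the cell cycle and begin to make the prepupal cuticle.

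The 4 wing libraries held 17389705 to 22230834 reads, within 14949900 to 22626725 for the 20, and showed 10857 to 11249 genes with a read. Levels are given as scaled RPM, the reads of a gene relative to the size of its library after scaling between libraries, without regard to gene length. A gene with no read in a wing library lay below 3 reads, which was 0.0895 to 0.118 scaled RPM; these limits and the intervals of shares cover counting error only. A gene was called changed at a Benjamini-Hochberg adjusted p under 0.05 by limma and a fold change of at least 2. Of 10172 genes tested, 1696 (16.7%) were called, 1079 higher (10.6%) and 617 lower (6.07%) at +6 h, and the median log2 fold change over all genes was 0. Without scaling beyond library size the split turned to 816 higher and 1502 lower, with a median of -0.34 over all genes. All 1696 called genes had wing libraries of the 2 times that did not overlap, as did 71.1% of all genes tested. Log2 fold changes are of +6 h over -6 h, on the scale of log2(scaled RPM + 1), and stand with their standard errors. In bulk tissue, fewer cells that use a gene and less of its RNA per cell cannot be told apart.

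Markers of the wing pouch, the part of the disc that forms the blade, were present in all 4 libraries. The 7 markers summed to 1520 to 1627 at +6 h and 1636 to 1661 at -6 h, and none of the 7 was called. One example is sd, the DNA-binding partner of Vestigial, with 392 and 386 scaled RPM at +6 h, against 385 and 415 at -6 h. Measured sex-linked RNA went against the label of sex in part. The noncoding RNA roX1 (lncRNA:roX1), which is made in male cells, stood at 38.7 and 1.80 scaled RPM at +6 h, against 0.804 and 34.1 at -6 h, so that replicate 1 at +6 h and replicate 2 at -6 h were high and the other 2 low. The times overlap in it, and it was not called (0.41 ± 1.29, adjusted p = 0.934). Without those 2 libraries, leaving 1 at each time whose spread is assumed to be that of the other groups in the fit, 815 genes were called higher and 323 lower, and 1076 of the 1696 genes (63.4%) were called in the same direction.

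Salivary gland RNA was also present. Reads of 8 glue genes, which the gland uses to fix the pupa to its support, took 0.0238% (95% Wilson interval 0.0231 to 0.0244) and 0.102% (0.101 to 0.104) of reads in the +6 h wings. They took 2.38% (2.37 to 2.38) and 1.63% (1.63 to 1.64) in the -6 h wings. In glands the share was 0.504% and 0.903% at +6 h, against 70.6% and 75.8% at -6 h. Gland RNA was estimated from these shares at -6 h. At +6 h it was estimated from 71E puff genes, which glands switch on in the prepupa. They took 0.0631% and 0.147% of reads in +6 h wings, and 17.2% and 21.0% in +6 h glands. By this estimate 513 genes tested, 108 of them called, could owe at least 25% of their level in a wing library to gland RNA. These genes are marked below as within reach of gland RNA. Without them 997 genes were called higher and 591 lower. The glue shares at +6 h would give a larger part of gland RNA than the 71E shares. Genes not marked may thus also hold gland RNA at +6 h.

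**Figure D1:**
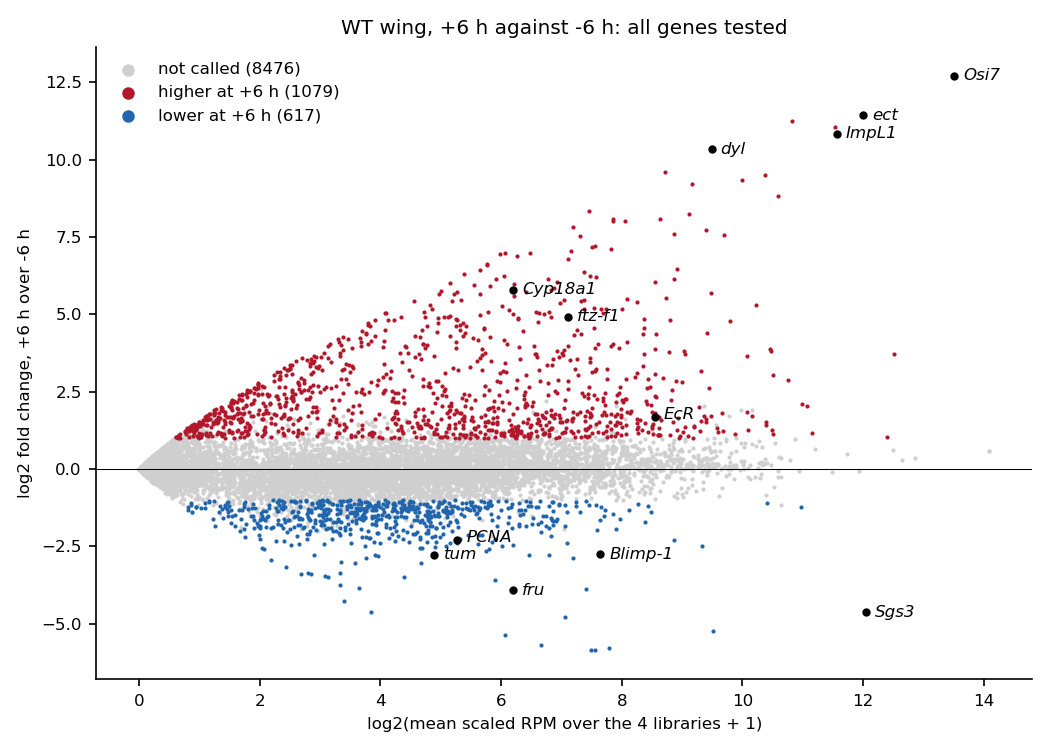
Log2 fold change of +6 h over -6 h (vertical axis) against log2 of the mean scaled RPM over the 4 WT wing libraries plus 1 (horizontal axis), 1 point per gene tested. Red points are the 1079 genes called higher at +6 h, blue points the 617 called lower and grey points the rest; Osi7 lies farthest up at 12.72, and Sgs3, a glue gene within reach of gland RNA, lies at -4.64.

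Of the 18 genes of the ecdysone cascade, all of which were tested, 4 were higher at +6 h and 2 lower (22.2% and 11.1%, against 10.6% and 6.07% of all genes). The cascade had a median log2 fold change of 0.22 (-0.21 without scaling). EcR (FBgn0000546, chromosome 2R, 6087873 to 6169087 of dm6), the hormone-binding receptor subunit, had 603 and 530.5 scaled RPM at +6 h, against 195 and 161 at -6 h, and 348 and 314 at -30 h. It rose by 1.67 ± 0.14 (adjusted p = 9.76e-07), and its level at -6 h was the lowest of the 3 times. Its partner usp, with 75.3 and 66.2 at +6 h, against 47.8 and 43.3 at -6 h, changed by 0.62 ± 0.19, adjusted p = 0.0306, which is under 2-fold. The gene overlaps Actn, so reads may be shared.

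The gene ftz-f1 (FBgn0001078, chromosome 3L, 18750607 to 18801309 of dm6), a nuclear receptor that makes prepupal tissue able to answer the next hormone pulse, had 239 and 294 scaled RPM at +6 h, against 9.16 and 6.62 at -6 h. It rose by 4.92 ± 0.37 (adjusted p = 2.36e-07), and both +6 h libraries also lay above the 70.4 and 61.4 scaled RPM of -30 h. Blimp-1 (FBgn0035625, chromosome 3L, 5630983 to 5652094 of dm6), a transcriptional repressor that keeps ftz-f1 off early in the prepupa, moved the other way. It had 62.8 and 39.4 scaled RPM at +6 h, against 303 and 389 at -6 h, after 0.882 and 1.497 at -30 h, and fell by 2.76 ± 0.37 (adjusted p = 7.02e-05). Hr3, a receptor that activates ftz-f1, had 19.2 and 13.2 scaled RPM at +6 h, against 2.31 and 10.7 at -6 h and did not pass the test (1.44 ± 0.62, adjusted p = 0.117). The 2 libraries at -6 h differed widely, and without replicate 2 of -6 h the gene was called (adjusted p = 0.0213).

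Among the other receptors, Hr4, a nuclear receptor of the same hormone response, had 1133 and 1058 scaled RPM at +6 h, against 301 and 371 at -6 h, and 3.95 and 12.4 at -30 h (1.71 ± 0.35, adjusted p = 0.00208). Eip93F, a factor of adult development and of gland death, was low throughout but higher at +6 h, with 10.9 and 9.57 scaled RPM against 1.38 and 1.25 at -6 h (2.28 ± 0.46, adjusted p = 0.00184). The +6 h libraries lay above the -6 h libraries in both genes. Hr4 lost its call in a fit of the WT wing libraries alone (adjusted p = 0.103). Without the libraries high in roX1, Eip93F missed the threshold (adjusted p = 0.0736). Kr-h1, which holds back adult programmes under juvenile hormone, fell to 19.5 and 17.3 at +6 h, against 52.1 and 50.1 at -6 h (-1.43 ± 0.18, adjusted p = 4.38e-05).

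Early genes of the hormone response did not pass the test. The broad gene (br), whose zinc finger factors specify the pupal stage, had 8865 and 7890 scaled RPM at +6 h, against 6457 and 6534 at -6 h, and 1511 and 1817 at -30 h (0.36 ± 0.49, adjusted p = 0.728). Eip75B, a receptor that blocks Hr3, had 490.3 and 478 at +6 h, against 516 and 514 at -6 h (-0.09 ± 0.19, adjusted p = 0.868), and the ETS factor Eip74EF had 97.6 and 115.2 at +6 h, against 151 and 129 at -6 h (-0.39 ± 0.39, adjusted p = 0.588). Eip78C, Sox14, Hr39, Hr78, crol and tai lay between -0.63 (crol) and 0.58 (Sox14). Hr38 had at most 0.0643 scaled RPM in the 4 libraries, under the limit of 3 reads.

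**Figure D2:**
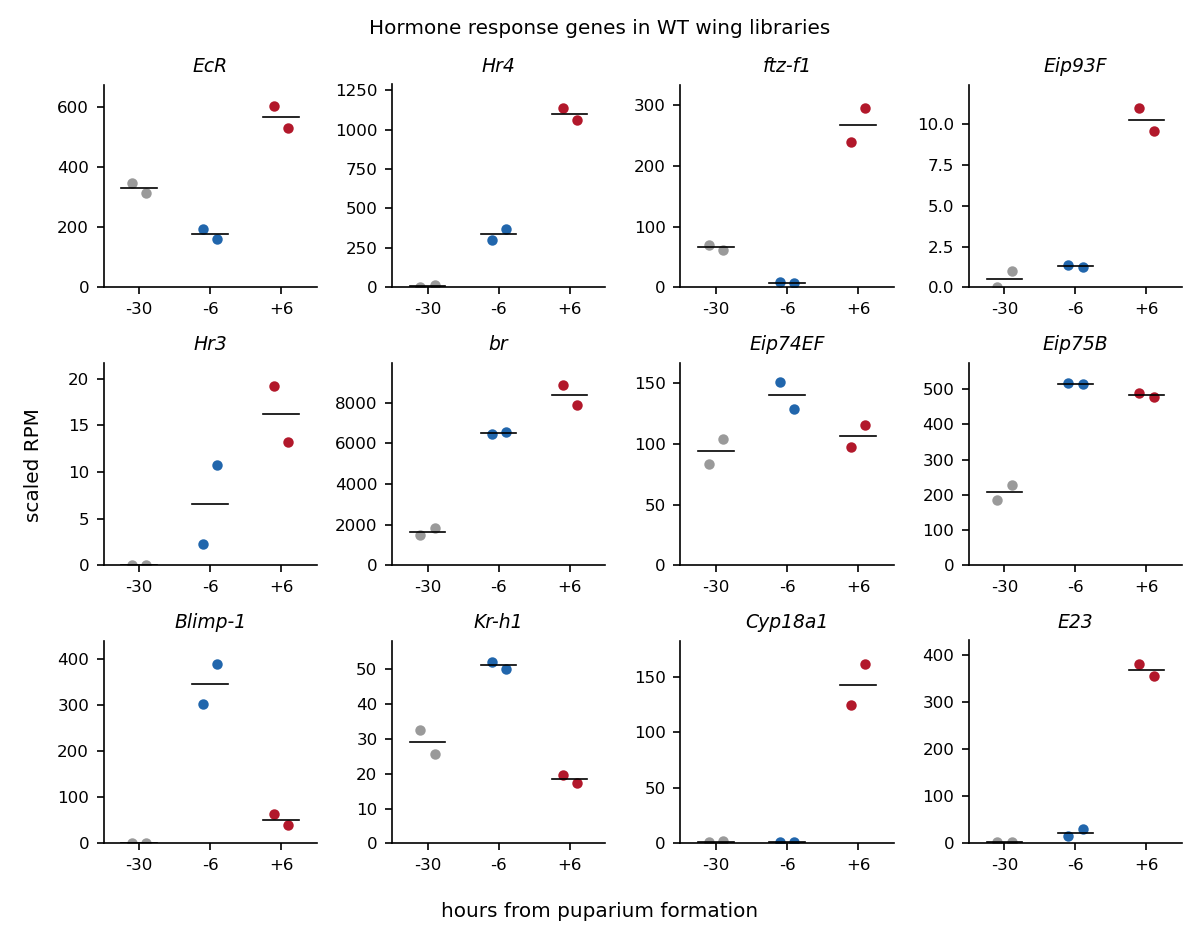
Scaled RPM (vertical axes, each from 0) of 12 hormone response genes in WT wings at -30, -6 and +6 h from puparium formation (horizontal axes); points are the 2 libraries of a time and lines their mean. EcR and ftz-f1 are lowest at -6 h and highest at +6 h, Blimp-1 and Kr-h1 are highest at -6 h, and Cyp18a1 reaches 125 and 161 at +6 h only.

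Of 6 genes that handle the hormone itself, 2 were higher (33.3%, against 10.6% of all genes) and none lower. Cyp18a1 (FBgn0010383, chromosome X, 18688538 to 18693042 of dm6), the hydroxylase that inactivates ecdysone, had 125 and 161 scaled RPM at +6 h, against 1.45 and 1.67 at -6 h (5.80 ± 0.38, adjusted p = 6.81e-08). E23, an ecdysone-induced transporter of the ABC family, had 379.8 and 354 at +6 h, against 14.7 and 30.6 at -6 h (4.04 ± 0.55, adjusted p = 7.47e-05). The 2 times stood well apart in both. Oatp74D, the importer of ecdysone, did not pass, with 115.1 and 101 at +6 h, against 77.2 and 105 at -6 h (0.26 ± 0.19, adjusted p = 0.436).

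Of 12 genes known as targets of the hormone in discs or cuticle, 6 were higher and 1 lower, with a median log2 fold change of 0.83. These shares, 50% and 8.33%, stand against 10.6% and 6.07% of all genes, and without scaling 4 were higher and 2 lower. Of the 12, 1 met the filter on low values only through the +6 h wing libraries and 2 were under it in both -6 h libraries. The count of higher genes is thus set in part by the filter. ImpL1 (FBgn0001256, chromosome 3L, 13382765 to 13383999 of dm6), first found as an ecdysone-inducible gene of imaginal discs, had 5544 and 6548 scaled RPM at +6 h, against 0.579 and 5.87 at -6 h, and rose by 10.84 ± 0.69 (adjusted p = 4.79e-08). ImpE1, another such gene, had 10789 and 10980 at +6 h, against 636 and 1049 at -6 h (3.73 ± 0.59, adjusted p = 0.000278). Its libraries at -6 h already lay above the 26.5 and 113 of -30 h. Edg84A, a prepupal cuticle protein and a known target of Ftz-f1, had 9.78 and 12.2 scaled RPM at +6 h and no read at -6 h, so its mean was at least 118-fold higher against a limit of 3 reads per library. Edg78E, Eip71CD and ImpE2 were the other genes higher (1.47, 1.37 and 1.02), and both Eip71CD and ImpE2 lost their call when any 1 of the 4 libraries was left out. Edg84A was under the filter on low values, and so not tested, without replicate 1 or replicate 2 of +6 h. The 1 gene lower, Eip63F-1, was within reach of gland RNA.

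The genes of the apical matrix, the layer that covers the outer face of an epithelium, included those with the largest rises. Of 23 Osiris genes, which encode membrane proteins of cuticle-forming epithelia, 13 had reads enough to be tested, 2 had no read in any of the 4 wing libraries and the other 8 were under the filter on low values. Of the 13, 5 met that filter only through the +6 h wing libraries and 8 were under it in both -6 h libraries, so that a count of higher genes over the 13 is set in part by the filter; all 13 were called, and the authors' deposited table calls 9 of them. Without replicate 1 or replicate 2 of +6 h, 4 of the 13 were not tested and 9 were called. The 13 all lie in 1 run of 20 Osiris genes on chromosome 3R, from 6173549 to 6341424 of dm6. Osi7 (FBgn0037414, chromosome 3R, 6248994 to 6251683 of dm6) had 21514 and 25023 scaled RPM at +6 h, against 2.12 and 2.80 at -6 h, and rose by 12.72 ± 1.12 (adjusted p = 1.24e-06). Osi6 had 3255 and 3951 at +6 h, against 0.289 and 0.656 at -6 h (11.26 ± 0.89, adjusted p = 4.14e-07), and Osi17 had 768 and 908 at +6 h, against 0 and 0.179 at -6 h (9.59 ± 0.48, adjusted p = 5.32e-09). In all of these the lowest +6 h library lay far above both -6 h libraries. Osi9 had 85.4 and 112 at +6 h, against 0.321 and 0 at -6 h, Osi14 had 306 and 349 at +6 h, against 3.09 and 2.80 at -6 h, and Osi15 had 60.0 and 78.9 at +6 h, against 0.0321 and 0.119 at -6 h (6.43 ± 0.22, 6.38 ± 0.47 and 6.02 ± 0.34). Osi3 had 28.1 and 36.0 scaled RPM at +6 h and no read at -6 h, at least 345-fold higher. At -30 h Osi7 had 3.13 and 70.5 scaled RPM, with replicate 2 above both -6 h libraries.

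Zona pellucida (ZP) proteins polymerise into the apical matrix and tie it to the cell. Of 12 ZP genes tested, 9 were higher and 1 lower (75% and 8.33%, against 10.6% and 6.07% of all genes). Their median log2 fold change was 2.97. Of the 12, 1 met the filter only through the +6 h wing libraries and 2 were under it in both -6 h libraries. The dusky-like gene dyl (FBgn0066365, chromosome 3L, 4294004 to 4307718 of dm6) had 1223 and 1649 scaled RPM at +6 h, against 0.0964 and 0.0895 at -6 h (10.34 ± 0.65, adjusted p = 3.7e-08). Its relatives dy and m, named for small wings, had 3029 and 3091 at +6 h, against 4.66 and 6.92 at -6 h, and 222 and 221 at +6 h, against 1.09 and 6.62 at -6 h (8.84 ± 0.73, adjusted p = 6.87e-07; 5.80 ± 0.45, adjusted p = 3.51e-07). All 3 were low at -6 h, and at -30 h dy had 0.730 and 12.5 and dyl 0.274 and 5.79. Others were present at -6 h already: nyo had 1735 and 1690 at +6 h, against 60.0 and 63.1 at -6 h, tyn had 991 and 948 at +6 h, against 52.8 and 86.1 at -6 h, and the giant matrix protein gene dpy, which anchors the wing to the cuticle, had 2766 and 3820 at +6 h, against 763 and 762 at -6 h (log2 fold changes 4.78 ± 0.36, 3.83 ± 0.38 and 2.09 ± 0.24). The ZP gene pio, whose product works with Dumpy, fell to 136 and 110.1 at +6 h, against 297 and 380.4 at -6 h (-1.45 ± 0.19, adjusted p = 4.8e-05).

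**Figure D3:**
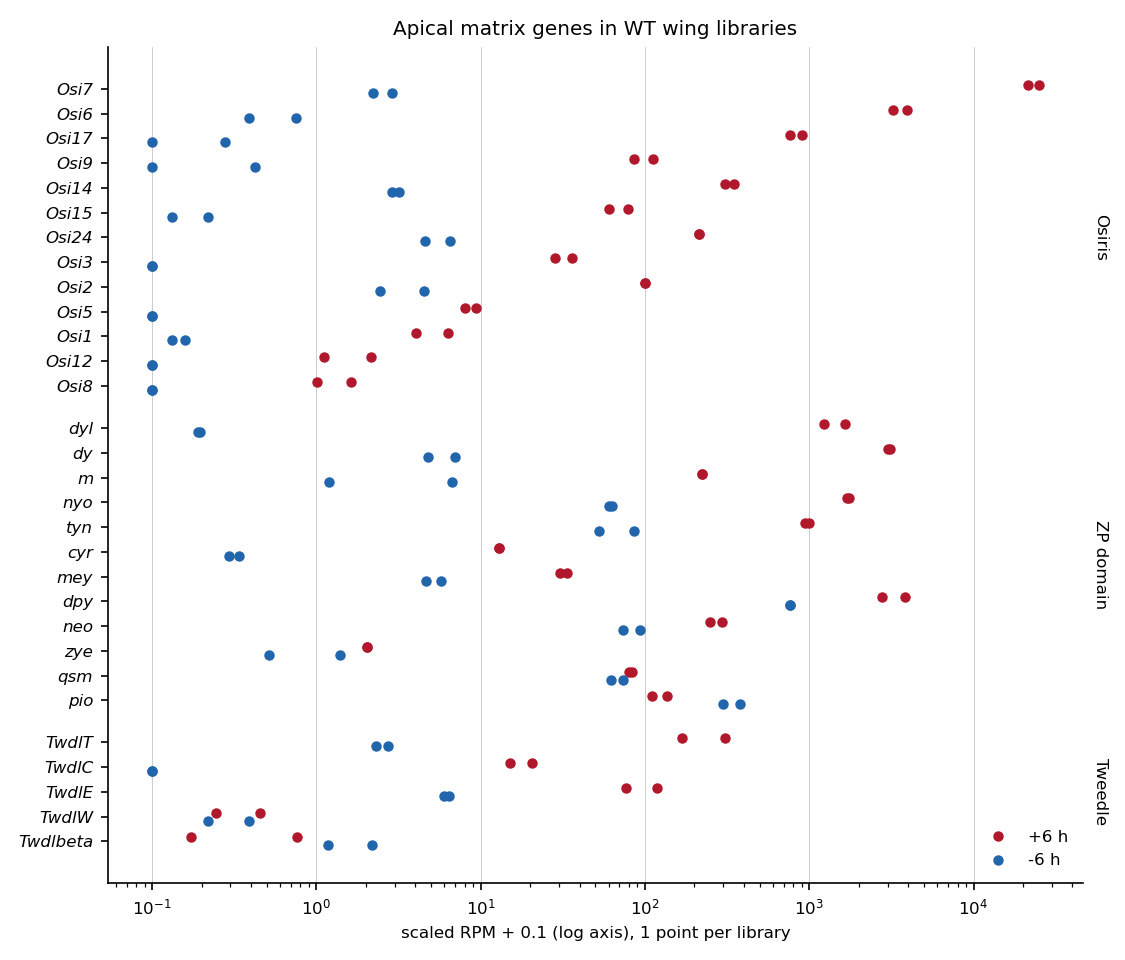
Scaled RPM plus 0.1 (horizontal log axis) of the tested Osiris, ZP domain and Tweedle genes in WT wing libraries, 1 point per library, with +6 h in red above -6 h in blue for each gene. The 13 Osiris genes lie to the right at +6 h, Osi7 at 21514 and 25023 and Osi8 at 1.52 and 0.902 scaled RPM, while pio and Twdlbeta lie to the left, Twdlbeta without passing the test.

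Genes for structural proteins of the cuticle were higher in part. Of 27 Tweedle genes 5 were tested and 8 had no read in the 4 libraries; 2 of the 5 were under the filter in both -6 h libraries, so no share is read from the 3 that were called. TwdlT had 167 and 309 at +6 h, against 2.22 and 2.62 at -6 h (6.06 ± 0.49, adjusted p = 5.64e-07), TwdlE had 76.8 and 119 at +6 h, against 5.91 and 6.29 at -6 h (3.77 ± 0.44, adjusted p = 1.93e-05), and TwdlC had 14.9 and 20.48 at +6 h and no read at -6 h. Of 100 genes of the Cpr family of chitin-binding cuticle proteins, 48 were tested and 32 had no read in any of the 4 libraries. Of those tested, 12 were higher and 2 lower (25% and 4.17%, against 10.6% and 6.07% of all genes). However, 6 of the 48 met the filter only through the +6 h wing libraries and 31 were under it in both -6 h libraries. Cpr35B had 49.2 and 51.9 at +6 h, against 2.31 and 2.09 at -6 h (4.01 ± 0.22, adjusted p = 1.31e-08), and Cpr97Ea had 13.8 and 17.7 at +6 h, against 0.321 and 0.745 at -6 h (3.45 ± 0.25, adjusted p = 1.45e-07). Cpr64Aa stood against these with 0.0725 and 0 at +6 h, against 22.5 and 15.6 at -6 h (-4.25 ± 0.35, adjusted p = 6.04e-07). It overlaps CG43367, so its reads may be shared. The number higher was 6 with a pseudocount of 4 and 7 without replicate 2 of +6 h, where 3 of the 12 were not tested.

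Chitin metabolism showed 12 genes higher and 1 lower of 30 tested (median 0.56), or 9 higher without scaling. These shares, 40% and 3.33%, stand against 10.6% and 6.07% of all genes. Of the 30, 1 met the filter on low values only through the +6 h wing libraries and 7 were under it in both -6 h libraries. The chitinase Cht5 had 578 and 650.3 at +6 h, against 40.5 and 51.3 at -6 h (3.72 ± 0.28, adjusted p = 2.6e-07). The gene mmy, which makes the sugar precursor of chitin, had 100.1 and 107 at +6 h, against 7.59 and 8.83 at -6 h (3.51 ± 0.15, adjusted p = 1.16e-09). Idgf4, a chitinase-like growth factor of discs, fell to 7.79 and 8.47 at +6 h, against 105 and 114.6 at -6 h (-3.60 ± 0.20, adjusted p = 1.34e-08). For each the 2 libraries of a time were close together and the times far apart. Of 14 genes of cuticle tanning, 3 were higher and 1 lower (21.4% and 7.14%, against 10.6% and 6.07% of all genes). The call of the lower gene, yellow-b, was lost without replicate 1 or 2 of +6 h or replicate 1 of -6 h. Among the tanning genes ple, the tyrosine hydroxylase that starts dopamine synthesis, had 20.2 and 32.3 at +6 h, against 0.546 and 0.477 at -6 h (4.14 ± 0.75, adjusted p = 0.000835). The gene stw, a laccase that cross-links cuticle, had 338 and 338 at +6 h, against 36.9 and 36.6 at -6 h (3.17 ± 0.27, adjusted p = 1.05e-06).

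Of 11 genes that remodel the matrix, 4 were higher and 3 lower (36.4% and 27.3%, against 10.6% and 6.07% of all genes). Sb, a membrane-bound serine protease needed for eversion of the disc, had 2828 and 2469 scaled RPM at +6 h, against 149 and 231 at -6 h (3.83 ± 0.37, adjusted p = 3.26e-06), and Np, another, which cuts ZP domain proteins of the matrix, had 2632 and 2658 at +6 h, against 149 and 209 at -6 h (3.90 ± 0.55, adjusted p = 0.00011). At -6 h both already lay above their levels at -30 h, 19.9 and 38.7 for Sb and 31.3 and 52.8 for Np. The matrix metalloprotease Mmp1 had 414 and 349.9 at +6 h, against 83.7 and 102 at -6 h and did not pass the test (2.03 ± 0.81, adjusted p = 0.0893), though the 2 times did not overlap. Of the 4 higher, Loxl1 was within reach of gland RNA, and of the 3 lower, Ance lost its call when any 1 of the 4 libraries was left out and AdamTS-A without replicate 2 of -6 h. The protease tld, which frees BMP ligands, fell to 2.86 and 5.22, against 19.99 and 24.01 at -6 h (-2.23 ± 0.30, adjusted p = 7.1e-05).

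On the basal side, 2 of 14 basement membrane genes were higher and 1 lower (14.3% and 7.14%, near the 10.6% and 6.07% of all genes). The laminin subunit gene wb, needed to hold the 2 wing layers together, had 656 and 793 scaled RPM at +6 h, against 84.2 and 104 at -6 h (2.93 ± 0.28, adjusted p = 2.76e-06). The collagen XV/XVIII gene Mp fell to 2.03 and 2.86 at +6 h, against 37.0 and 37.8 at -6 h, a level that was itself above the 5.48 and 7.25 of -30 h (-3.49 ± 0.49, adjusted p = 0.000111). Of 15 genes of integrin adhesion, 5 were higher (33.3%, against 10.6% of all genes) and none lower (3 higher without scaling). They included the integrin subunits scb and mys, with 113 and 114 at +6 h, against 28.1 and 36.2 at -6 h, and 347 and 391 at +6 h, against 122 and 168 at -6 h (1.79 ± 0.20, adjusted p = 1.06e-05; 1.36 ± 0.19, adjusted p = 8.5e-05). The tensin gene by and the kindlin gene Fit2, both adaptors of integrins, rose by 1.95 ± 0.21 and 2.68 ± 0.45. No gene of 18 for septate junctions was called.

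Genes that shape the wing hair were higher in part, and most of the actin and hair genes were not called. The hair polarity effector mwh had 78.5 and 72.5 scaled RPM at +6 h, against 1.83 and 2.18 at -6 h (4.67 ± 0.33, adjusted p = 1.42e-07), f (forked), an actin bundler of hairs and bristles, had 94.98 and 116 at +6 h, against 4.05 and 5.07 at -6 h (4.26 ± 0.29, adjusted p = 7.7e-08), and sha, which acts in hair formation, had 11.1 and 11.7 at +6 h, against 0.739 and 1.19 at -6 h (2.66 ± 0.25, adjusted p = 2.31e-06). All 3 were low in both libraries at -6 h. The filamin gene cher fell to 43.1 and 41.3 at +6 h, against 240.3 and 216 at -6 h and 679 and 548 at -30 h (-2.40 ± 0.12, adjusted p = 5.74e-09). In all, 4 of 20 actin and hair genes were higher and 1 lower (20% and 5%, against 10.6% and 6.07% of all genes). Of 16 planar polarity genes mwh was higher and pk lower (6.25% each, not above the higher share and near the lower share of all genes). The call of pk was lost when any 1 of the 4 libraries was left out. The cytoplasmic actin gene Act5C did not pass, with 3867 and 3721 at +6 h, against 3535 and 4451 at -6 h (-0.06 ± 0.16, adjusted p = 0.903).

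Cell cycle genes were lower or did not pass. Of 35 DNA replication genes tested, 28 were lower and none higher (median -1.70), of 50 mitosis genes 37 were lower and none higher (median -1.65), and of 24 regulators 7 were lower and none higher (median -0.86). These shares, 80.0%, 74.0% and 29.2%, stand against 6.07% of all genes. The number lower was 15 for replication and 18 for mitosis without the 2 libraries high in roX1, and 7 for each when limma tested against a 2-fold change in place of 0. PCNA (FBgn0005655, chromosome 2R, 20261754 to 20262883 of dm6), the sliding clamp of the replication fork, had 11.2 and 12.9 scaled RPM at +6 h, against 65.6 and 60.8 at -6 h, and 86.2 and 87.1 at -30 h (-2.30 ± 0.28, adjusted p = 2.64e-05). The helicase subunit gene Mcm5 had 6.30 and 5.88 at +6 h, against 37.9 and 28.7 at -6 h (-2.26 ± 0.20, adjusted p = 1.55e-06). The centralspindlin gene tum (FBgn0086356, chromosome 2R, 13856150 to 13858689 of dm6), which acts in cytokinesis, had 6.38 and 6.75 at +6 h, against 56.3 and 45.6 at -6 h (-2.77 ± 0.47, adjusted p = 0.000516). In each the 3 times did not overlap, with -30 h highest and +6 h lowest; Mcm5 had 59.8 and 63.1 and tum 97.9 and 80.0 at -30 h.

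Among the regulators, CycB, the mitotic cyclin, had 38.7 and 30.1 scaled RPM at +6 h, against 143 and 101 at -6 h (-1.79 ± 0.27, adjusted p = 0.000222), and Cdk2, the kinase of S phase entry, had 14.7 and 14.4 at +6 h, against 45.2 and 42.3 at -6 h (-1.52 ± 0.19, adjusted p = 4.29e-05). The Cdc20 gene fzy, which opens anaphase, had 8.77 and 7.34 at +6 h, against 40.1 and 40.9 at -6 h (-2.20 ± 0.45, adjusted p = 0.00204), but it overlaps cact, so reads may be shared. The phosphatase gene stg, the Cdc25 that admits cells to mitosis, had 50.1 and 57.8 at +6 h, against 237 and 181 at -6 h and just missed the threshold (-1.92 ± 0.67, adjusted p = 0.0503). The times did not overlap in any of the 4. E2f1, which activates S phase genes, was higher at +6 h by less than 2-fold, with 554 and 555 at +6 h, against 319.7 and 332 at -6 h (0.77 ± 0.18, adjusted p = 0.00557). The Cdk inhibitor gene dap had 47.4 and 42.7 at +6 h, against 49.2 and 34.6 at -6 h (0.12 ± 0.74, adjusted p = 0.987).

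Ribosome assembly factors were lower at +6 h. Of 26 ribosome biogenesis genes 20 were lower (76.9%, against 6.07% of all genes; median -1.33), or 12 without the libraries high in roX1 and 2 tested against a 2-fold change, among them hoip, a protein of the small nucleolar particles, with 8.15 and 9.06 scaled RPM at +6 h, against 39.3 and 36.8 at -6 h (-2.02 ± 0.29, adjusted p = 0.000132), and Nop60B, the pseudouridine synthase of rRNA, with 46.1 and 46.3 at +6 h, against 151 and 158 at -6 h (-1.72 ± 0.16, adjusted p = 2.51e-06). The 2 times did not overlap in either. None of 83 ribosomal protein genes was called (median 0.11, -0.40 without scaling), and none of 71 mitochondrial ribosomal protein genes (median -0.45), of which 17 were lower without scaling. The growth regulator Myc had 85.8 and 69.9 at +6 h, against 161 and 178 at -6 h (-1.12 ± 0.24, adjusted p = 0.00286), and the insulin receptor gene InR had 104 and 117 at +6 h, against 199.8 and 255 at -6 h (-1.03 ± 0.19, adjusted p = 0.00111). InR lost its call with median-of-ratios scaling, without replicate 1 of +6 h or replicate 2 of -6 h, and without the libraries high in roX1 (-0.77 there), and Myc without replicate 2 of +6 h. Of 24 growth genes 1 was higher and 2 lower (4.17% and 8.33%, against 10.6% and 6.07% of all genes). The higher gene, the amino acid transporter slif, was within reach of gland RNA.

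Genes of the secretory pathway and of glycolysis were called higher more often than the 10.6% of all genes. Of 38 secretory genes 17 were higher (44.7%) and none lower (median 1.007), or 8 without scaling and 21 with median-of-ratios scaling. Hsc70-3, the chaperone BiP of the endoplasmic reticulum, had 3345 and 3574 scaled RPM at +6 h, against 688 and 1013 at -6 h (2.05 ± 0.23, adjusted p = 1.13e-05), and CrebA, a transcription factor of secretory genes, had 1081 and 939.7 at +6 h, against 274 and 347 at -6 h (1.71 ± 0.23, adjusted p = 8.46e-05). Of 16 glycolysis genes 9 were higher (56.2%) and none lower (median 1.25), or 4 without scaling. Ldh, the lactate dehydrogenase, had 131 and 125 at +6 h, against 5.66 and 8.23 at -6 h (4.04 ± 0.35, adjusted p = 1.01e-06), and Pfk, the phosphofructokinase, had 218 and 226 at +6 h, against 68.8 and 71.5 at -6 h (1.65 ± 0.31, adjusted p = 0.0012). The lowest +6 h library exceeded the highest -6 h library in each. No gene of 12 for the citric acid cycle was called. For the respiratory chain 1 of 68 was called, UQCR-11L, which was higher (1.47%, against 10.6% of all genes). Its call was lost without scaling and without replicate 1 or 2 of +6 h or replicate 1 of -6 h.

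**Figure D4:**
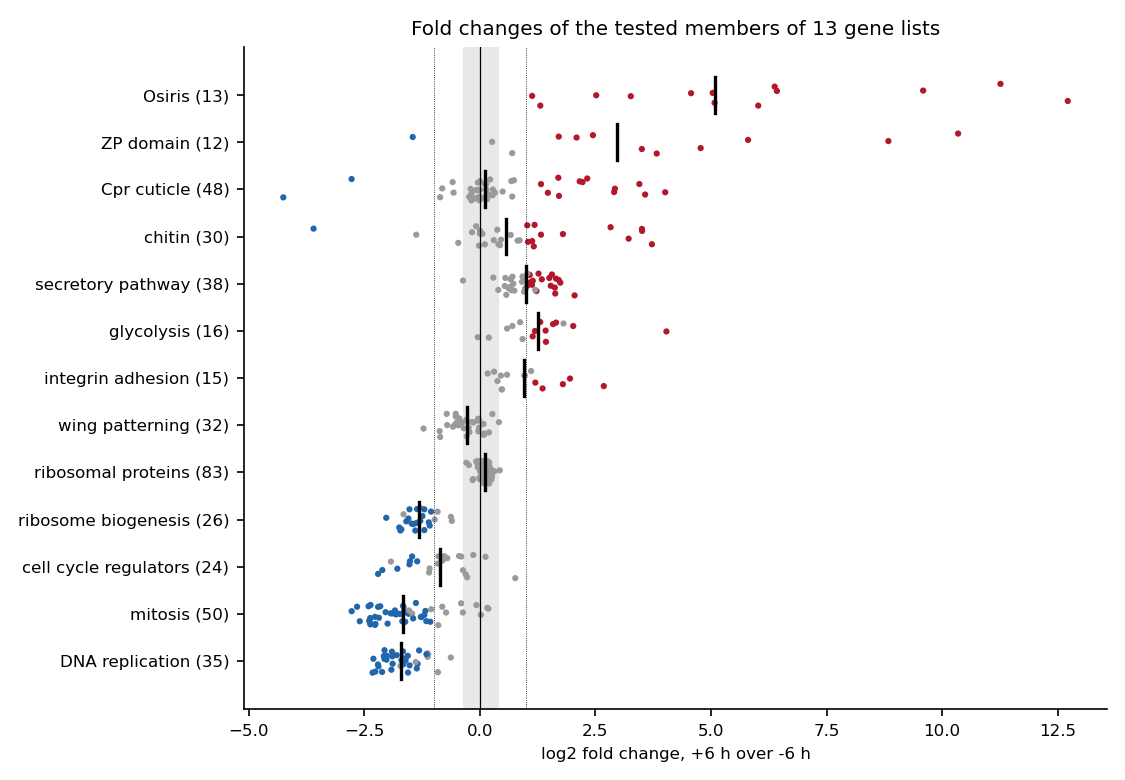
Log2 fold change of +6 h over -6 h (horizontal axis) for each tested member of 13 gene lists (number tested in brackets); red points were called higher, blue points lower and grey points neither, thick bars are list medians, dotted lines mark 2-fold and the grey band holds the middle 50% of all genes tested. The DNA replication median lies at -1.70 and that of ribosomal proteins at 0.11; the Osiris genes shown are the 13 that met the filter on low values, 5 of them only through the +6 h wing libraries.

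Of 32 genes that pattern the wing, none was called (median -0.29), while 9 were called lower without scaling. One example is hth, a marker of the disc's hinge region, with 1017 and 953 scaled RPM at +6 h, against 923 and 1076 at -6 h (-0.02 ± 0.19, adjusted p = 1). Among 20 genes of veins and EGFR signalling, 2 were higher and 1 lower (10% and 5%, near the 10.6% and 6.07% of all genes). The bHLH factor gene tx (taxi), known from tendon and intervein cells, had 439 and 479 at +6 h, against 0.675 and 0.865 at -6 h (8.02 ± 0.57, adjusted p = 1.29e-07), and kn, which marks the region between veins 3 and 4, had 213 and 187 at +6 h, against 61.8 and 74.9 at -6 h (1.54 ± 0.43, adjusted p = 0.0158). The BMP antagonist gene sog fell to 44.6 and 42.2, against 97.3 and 125 at -6 h (-1.33 ± 0.15, adjusted p = 1.16e-05). Of these 3, kn lost its call without scaling, without the libraries high in roX1 and when replicate 1 or 2 of +6 h or replicate 1 of -6 h was left out (1.58 without the libraries high in roX1). Notch signalling genes gave 3 higher and 1 lower of 30 (10% and 3.33%, near the shares of all genes), or 1 and 2 without scaling, and the lower call, E(spl)m8-HLH, was lost without replicate 2 of +6 h or replicate 1 of -6 h. The largest of these changes was that of E(spl)m6-BFM, a small target of Notch, with 51.3 and 61.1 at +6 h, against 10.8 and 9.36 at -6 h (2.36 ± 0.33, adjusted p = 0.000103).

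Among genes that time development, 2 of 10 were higher and 3 lower (20% and 30%, against 10.6% and 6.07% of all genes). The 2 higher, dati and nerfin-1, were chosen after their values were seen. Of the 10, 1 met the filter on low values only through the +6 h wing libraries. Without replicate 2 of +6 h the call of dati was lost, and nerfin-1 was not tested without replicate 1 or replicate 2 of +6 h. Of the 3 lower, ab lost its call when any 1 of the 4 libraries was left out, and 1 was called without the libraries high in roX1. The let-7 complex host transcript (lncRNA:let7C) had 6.34 and 5.18 scaled RPM at +6 h, against 18.8 and 25.9 at -6 h, after 0.335 and 0 at -30 h (-1.78 ± 0.38, adjusted p = 0.00308); it overlaps CG10283, and lost its call without the libraries high in roX1. The translational repressor gene brat fell to 212 and 181, against 498 and 536 at -6 h (-1.40 ± 0.21, adjusted p = 0.000208). The RNA-binding protein genes Syp and Imp, which mark late and early states in neural stem cells, had 2935 and 2795 at +6 h, against 1758 and 1926 at -6 h, and 715 and 694 at +6 h, against 336 and 378 at -6 h, both under 2-fold (0.64 ± 0.17 and 0.98 ± 0.25). Of 16 genes of JNK and stress signalling, 3 were called, all higher (18.8%, against 10.6% of all genes), and 1 without scaling. Pvr, a receptor of the PDGF and VEGF type, had 180.0 and 187 at +6 h, against 45.8 and 59.9 at -6 h (1.79 ± 0.20, adjusted p = 1.05e-05), and puc, the phosphatase that JNK signalling switches on, had 135 and 150.02 at +6 h, against 49.3 and 50.5 at -6 h (1.49 ± 0.17, adjusted p = 1.69e-05). The call of puc was lost without scaling. Of 10 genes of cell death none was called. Of 20 autophagy genes 1 was called, Atg18b, which was higher (5%, against 10.6% of all genes). It had 18.1 and 17.6 at +6 h, against 4.40 and 2.83 at -6 h (2.05 ± 0.62, adjusted p = 0.0255). Atg18b overlaps CG8679 and lost its call when any 1 of the 4 libraries was left out.

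Of 8 small RNA genes 1 was lower (12.5%, against 6.07% of all genes), Dcr-2, the nuclease of the siRNA pathway. It had 68.3 and 60.9 at +6 h, against 148 and 119.6 at -6 h (-1.03 ± 0.21, adjusted p = 0.00201). Dcr-2 overlaps Rab4 and lost its call without replicate 2 of +6 h or replicate 1 of -6 h. AGO1, which carries microRNAs, had 1003 and 973 at +6 h, against 489 and 499 at -6 h, just under 2-fold (1.00 ± 0.11, adjusted p = 1.13e-05). Among heat shock genes 1 of 10 was higher and 1 lower (10% each, against 10.6% and 6.07% of all genes). The higher gene, Hsp67Bc, was within reach of gland RNA. The lower gene was Hsp23, a small heat shock protein known to answer ecdysone, with 169.6 and 136 at +6 h, against 618 and 410.3 at -6 h (-1.72 ± 0.54, adjusted p = 0.0312). Leaving out any 1 of the 4 libraries took the call of Hsp23 away. Of 28 antimicrobial genes 6 were higher (21.4%, against 10.6% of all genes), but 12 of the list's members were within reach of gland RNA. Of the 28, 24 were under the filter on low values in both -6 h wing libraries and 19 in both +6 h wing libraries. Of glutathione transferase genes 3 of 30 were higher (GstD2, GstD3 and GstS1), a share of 10%, near that of all genes, and 1 without replicate 2 of +6 h, replicate 1 of -6 h or the libraries high in roX1. Of translation factors 1 of 41 was higher (2.44%, against 10.6% of all genes). It was eEF1alpha2, with 199.7 and 179 at +6 h, against 24.04 and 29.6 at -6 h (2.78 ± 0.37, adjusted p = 6.73e-05). None of 20 tRNA synthetase genes, 5 juvenile hormone genes or 2 Hox genes of neighbouring segments was called. The immune receptor gene PGRP-LC was not marked as within reach, with 31.2 and 31.6 at +6 h, against 2.09 and 3.13 at -6 h (3.18 ± 0.31, adjusted p = 3.76e-06).

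Markers of other tissues moved as well. The 10 salivary gland markers summed to 187 to 808 at +6 h and 8917 to 12506 at -6 h and 6 were lower, or 2 without the libraries high in roX1. The 6 gland markers lower were 60% of the 10, against 6.07% of all genes. The 8 genes that fell most with at least 20 scaled RPM (CG7587, Sgs8, Sgs7, Sgs5, CG7606, Sgs4, Eig71Ee and Sgs3) were all within reach of gland RNA. For glue genes at -6 h and 71E genes at +6 h that reach is fixed by its definition, since their reads set the estimate. The 10 genes of the 71E puff, which glands switch on in the prepupa, summed to 508 to 1196 at +6 h and 13.6 to 33.7 at -6 h, with 9 higher; without replicate 2 of +6 h the number was 0, without replicate 1 of -6 h it was 3, and without both libraries high in roX1 it was 4. With all 4 libraries the 9 genes of the 71E puff called higher were 90% of the 10, against 10.6% of all genes. The 8 fat body markers summed to 27.8 to 63.3 at +6 h and 32.4 to 45.7 at -6 h, and none was called. Blood cell markers summed to 44.1 to 51.7 at +6 h and 17.9 to 18.9 at -6 h, with 2 of 7 higher. Of the 7, 1 met the filter on low values only through the +6 h wing libraries. In both -6 h libraries 4 were under it, so no share is read from the 2 called. The gene srp, the GATA factor of blood and fat body, had 18.8 and 18.8 at +6 h, against 0.964 and 0.835 at -6 h (3.38 ± 0.50, adjusted p = 0.000159). NimC1 had 1.38 and 1.80 at +6 h, against 0 and 0 at -6 h. Hml, a marker of plasmatocytes, stood at 1.67 and 1.33 at +6 h, against 0.771 and 0.626 at -6 h without passing, and eater had no read. Muscle and myoblast markers summed to 939 to 983 at +6 h and 427 to 435 at -6 h. Of these, 3 of 12 were higher (sls, Act57B and how), which is 25%, against 10.6% of all genes. The myoblast factor twi had 39.5 and 37.6 at +6 h, against 36.8 and 31.0 at -6 h. Tracheal markers summed to 3006 to 3143 at +6 h and 1430 to 1589 at -6 h. Of 8, bnl was higher and btl lower (12.5% each, against 10.6% and 6.07% of all genes), though btl lost its call when any 1 of the 4 libraries was left out. Neuron and glia markers summed to 331 to 339.7 at +6 h and 221 to 233 at -6 h. Of 8, brp and moody were higher (25%, against 10.6% of all genes). Of the 8, 1 met the filter only through the +6 h wing libraries and 3 were under it in both -6 h libraries. The count of higher markers is thus set in part by the filter. The call of brp was lost without replicate 1 of +6 h or of -6 h, and that of Act57B without replicate 1 of -6 h. Of 7 genes of dosage compensation and sex, only mof was lower (14.3%, against 6.07% of all genes). It had 12.1 and 8.75 at +6 h, against 26.9 and 23.5 at -6 h, and lost its call without replicate 2 of +6 h or either -6 h library. The part of these other cells in the results above was not tested, beyond the counts without genes within reach of gland RNA.

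In the lists with no call, limma gave an unadjusted p under 0.05 to 0 of 83 genes of ribosomal proteins, 7 of 71 of mitochondrial ribosomal proteins, 4 of 32 of wing patterning, 6 of 20 of tRNA synthetases, 5 of 18 of septate junctions, 3 of 12 of the citric acid cycle, 1 of 10 of cell death, 0 of 8 of fat body, 0 of 7 of the wing pouch, 1 of 5 of juvenile hormone and 0 of 2 Hox genes. The authors' deposited table calls 2 genes over these lists, 1 of juvenile hormone and 1 of fat body.

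The gland was sampled at the same 2 times, which allows the wing's change to be set against that of another tissue. The difference of the 2 changes (wing minus gland, the interaction term of the same limma fit) was called for 2750 of 10172 genes (27%), 1709 higher (16.8%) and 1041 lower (10.2%). The median difference over all genes was 0.14, but -0.70 without scaling, where the split turned to 705 higher and 2902 lower. Of the 1079 genes higher in the wing, 423 were also higher in the gland (39.2% of the wing's genes and 30.4% of the gland's 1393), and 108 were lower there (10% of the wing's genes). Over all genes tested 13.7% were higher in the gland and 16.3% lower. Of the 617 lower in the wing, 195 were also lower in the gland (31.6% of the wing's and 11.8% of the gland's 1657), and 33 were higher there (5.35% of the wing's).

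Of the 18 cascade genes, 9 differed with a positive sign and 2 with a negative one, against 16.8% and 10.2% of all genes. The number with a negative sign lay near the share of all genes. EcR had 168 and 189 scaled RPM in +6 h glands, against 1320 and 1267 in -6 h glands, the opposite direction to the wing, and the changes differed by 4.52 ± 0.20 (adjusted p = 3.21e-09). Eip74EF had 26.8 and 28.1 in +6 h glands, against 2340 and 1696 in -6 h glands, while the wing's levels did not pass, and the changes differed by 5.74 ± 0.54 (adjusted p = 2.41e-06). Blimp-1 differed by -3.70 ± 0.53 (adjusted p = 8.77e-05). For ftz-f1 the gland change was 3.87 ± 0.37 and the difference of 1.05 ± 0.52 did not pass (adjusted p = 0.148). For Kr-h1 the gland change was -1.24 ± 0.18, and the difference of -0.18 ± 0.26 did not pass either (adjusted p = 0.655).

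**Figure D5:**
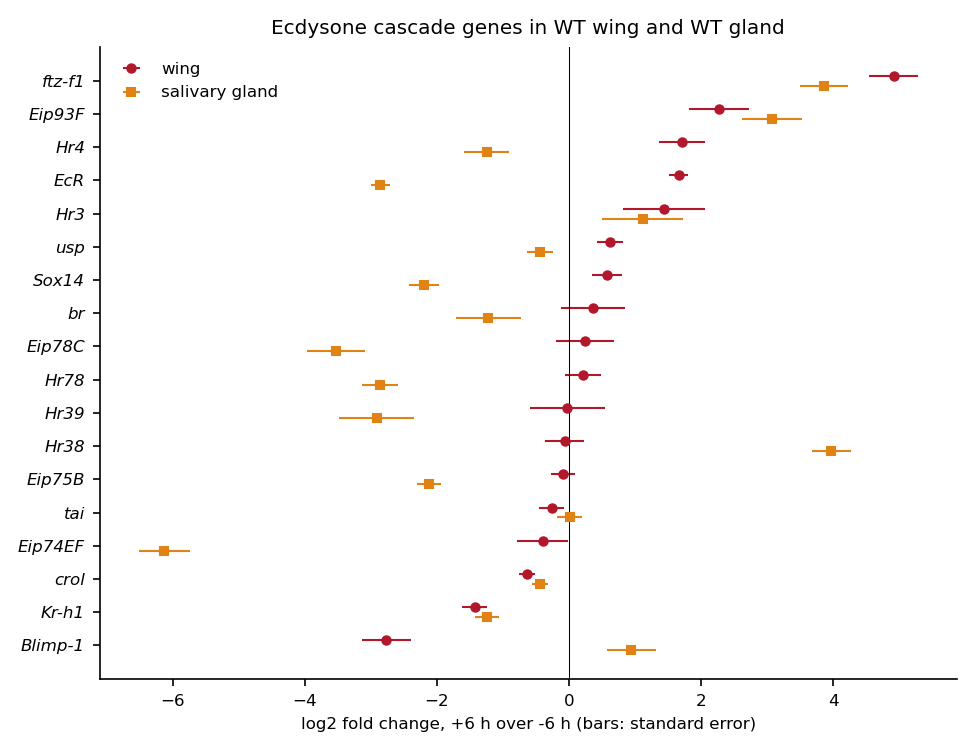
Log2 fold change of +6 h over -6 h (horizontal axis, bars are standard errors) of the 18 ecdysone cascade genes in WT wing (red circles) and WT salivary gland (orange squares), sorted by the wing. EcR lies at 1.67 in the wing and -2.85 in the gland, and ftz-f1 lies far to the right in both.

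Osi7 differed from the gland by 6.91 ± 1.58 (adjusted p = 0.00382). The gland also changed in Osi7, with 959 and 552 scaled RPM at +6 h, against 10.8 and 13.3 at -6 h. Of all genes tested, 10.2% differed from the gland with a negative sign and 16.8% with a positive one. Of 50 mitosis genes 23 differed with a negative sign and 1 with a positive one, and of 35 replication genes 9 and none. Of 38 secretory genes 3 differed in each direction, which is not above these shares of all genes. Hsc70-3 rose in the gland too (2.499 ± 0.23). Ldh differed by 7.15 ± 0.49, with 12.7 and 10.8 in +6 h glands, against 124 and 95.9 in -6 h glands.

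In the authors' deposited table of the same comparison, whose sign was turned to +6 h over -6 h, 1097 of 10840 genes were higher (10.1%) and 539 lower (4.97%) at the same thresholds. Both calculations called 1428 genes in the same direction, which is 84.2% of those called here and 87.3% of the authors'. No gene was called in opposite directions. Edg84A, called here, stands in the authors' deposited table at 0.44 (adjusted p = 0.265).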

How the data were processed

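The authors deposited RPKM, reads corrected for gene length and library size, in a matrix of 17606 genes that is named as counts; 4 genes without values were left out. Per the submitters' processing notes STAR 2.7.3a, SAMtools 1.9 and DESeq2 (no version given) were used with dm6. The steps of the deposited RPKM gave whole reads back: 62097 of 62117 low values lay within 0.1 of a whole read, with lengths equal to gene spans including introns. The authors' deposited table gives log2 fold changes, their standard errors and p-values with adjusted p-values.

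RPM from these reads was scaled by TMM factors (trimming 30% and 5%), and log2 values with a pseudocount of 1 were fitted with limma 3.58.1 in R 4.3.3 (trend, robust), 1 mean per group over all 20 libraries, which left 10 residual degrees of freedom. A gene was tested if 2 libraries reached 0.558 scaled RPM (worth 10 reads in a library of median size) and all libraries together 15 reads. The median standard error was 0.287. The fit was tested on simulated data. Tables and figures used Python 3.11.15.

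The lists and named genes were chosen with earlier results of these data known. Named were cascade genes, up to 4 called members of a list (6 for matrix families) with at least 5 scaled RPM, the 8 largest changes, and up to 2 abundant members that did not pass. Of 51 lists, 6 listed genes were not matched. Whether reads were counted by strand is not given in the sources used here, so overlapping genes may share reads (375 of the 1696 called genes). Gland reach compares a wing library's share of glue reads (-6 h) or 71E reads (+6 h) with the gland's. A reach from glue reads at +6 h, which would be larger, was not computed.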

Additional observations from a re-analysis of the deposited data

Results flagged for a closer look

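The wing and gland changed differently between the same times for 2750 of 10172 genes (27%) by the interaction term. Of the 18 ecdysone cascade genes, 11 were among them. The differences, wing change minus gland change in log2, were 4.52 ± 0.20 for EcR, 1.05 ± 0.28 for usp, 5.74 ± 0.54 for Eip74EF, 2.03 ± 0.26 for Eip75B and 3.76 ± 0.62 for Eip78C. They were 2.96 ± 0.49 for Hr4, 2.89 ± 0.80 for Hr39, 3.07 ± 0.39 for Hr78 and 2.77 ± 0.32 for Sox14. Hr38 differed by -4.03 ± 0.42 and Blimp-1 by -3.70 ± 0.53. For Eip75B, Eip78C, Hr39, Hr78 and Sox14 the gland levels fell and the wing's did not pass the test; Sox14, for example, had 91.1 and 88.7 scaled RPM in +6 h wings, against 63.0 and 57.0 in -6 h wings, and 211 and 255 in +6 h glands, against 1192 and 943 in -6 h glands. Hr38 was near 0 in all 4 wing libraries, so its difference is that of the gland. The difference of usp changed sign without scaling.

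Among genes called in both the wing and the difference, the most positive were CG31100 (8.78 ± 0.34), CG4928 (8.15 ± 0.38), CG2841 (8.02 ± 0.49) and slif (7.58 ± 0.67), an amino acid transporter. CG2841 had 323 and 320.0 scaled RPM in +6 h wings, against 7.49 and 8.26 in -6 h wings, and 15.7 and 11.6 in +6 h glands, against 105 and 99.6 in -6 h glands. The others of the 4 are within reach of gland RNA, from 34.3% to 89.1% of their -6 h wing level. The most negative were Loxl1 (-8.22 ± 1.20), Drsl6 (-8.05 ± 1.04), CG42537 (-7.35 ± 1.37) and ATP7 (-7.32 ± 0.51), a copper transporter. For Loxl1, Drsl6 and CG42537 gland RNA could account for 74.0% to 140.2% of a wing level by the estimate used for the marks. For ATP7 the same estimate gave 6.10%, which is no upper limit. The shares of glue reads at +6 h would give a larger part, which was not computed, so ATP7 may also hold gland RNA at +6 h. ATP7 had 81.4 and 101 in +6 h wings, against 21.7 and 26.7 in -6 h wings, and 2309 and 2639 in +6 h glands, against 3.73 and 2.76 in -6 h glands. The part of gland RNA in these differences was not tested.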

How the results depend on the processing

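Scaling, the form of the test and the libraries high in roX1 moved the counts most. Without scaling the wing had 1502 genes lower, and the difference from the gland 705 higher and 2902 lower. With no fold minimum 968 wing genes were lower. Tested by limma treat against 2-fold, the wing had 607 called, 510 higher and 97 lower, and the difference 1171 called, 750 higher and 421 lower. With voom the difference had 1431 called, 1001 higher and 430 lower; with only the WT libraries of -6 and +6 h it had 1605 lower. Without the libraries high in roX1 the wing had 323 lower; this alternative and the one on gland reach were chosen after seeing the data. Leaving out 1 library gave 1324 to 1489 wing genes called, 872 to 1001 higher and 433 to 488 lower, and for the difference 2355 to 2604 called, 1287 to 1546 higher and 872 to 1287 lower. Other alternatives kept these counts within 1.5 times. The cause of these shifts was not tested.

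Same-numbered libraries of the 2 times deviated together (correlation 0.307), but there are only 2 pairs and the labels give no pairing; with a replicate block 1724 wing genes were called, 1091 higher and 633 lower, and 2815 differences. Of 134 named genes called, 74 kept their call under every alternative that tested them, 60 lost it under some, and none reversed. The difference of usp turned to -0.26 without scaling. Depth limits the genes listed at 0, which lie under 3 reads.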

Other observations

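Further genes with large changes lie outside the lists and were picked after their values were seen. The zinc finger gene ich, known from the apical matrix of the trachea, had 1172 and 1041 scaled RPM at +6 h, against 0.225 and 9.90 at -6 h (8.24 ± 0.75, adjusted p = 1.82e-06), Pdp1 had 753 and 959 at +6 h, against 27.7 and 30.8 at -6 h (4.82 ± 0.45, adjusted p = 2.53e-06), and Glut4EF had 489.5 and 504 at +6 h, against 10.3 and 15.9 at -6 h (5.17 ± 0.29, adjusted p = 1.42e-08). The gene fru fell to 8.30 and 7.81 at +6 h, against 150.1 and 123 at -6 h and 927 and 799 at -30 h (-3.92 ± 0.23, adjusted p = 1.91e-08), and nab, a cofactor of wing patterning, fell to 2.72 and 1.80, against 26.1 and 19.6 at -6 h (-2.87 ± 0.31, adjusted p = 8.99e-06). None of these 5 overlapped between times, and none was marked as within reach of gland RNA.

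Other genes picked in the same way were higher. The gene ect had 7788 and 8510 scaled RPM at +6 h, against 1.48 and 2.45 at -6 h (11.44 ± 0.75, adjusted p = 5.95e-08), the serine protease gene flz, known from tracheal matrix, had 2587 and 2681 at +6 h, against 1.16 and 5.07 at -6 h (9.51 ± 0.57, adjusted p = 2.75e-08), and CG6118 had 5921 and 5950 at +6 h, against 1.25 and 2.505 at -6 h (11.04 ± 0.62, adjusted p = 1.42e-08). The Toll ligand gene spz6 had 177 and 199.5 at +6 h, against 4.31 and 8.05 at -6 h (4.77 ± 0.28, adjusted p = 2.35e-08). The cuticle-related P450 gene Cyp301a1 had 221 and 208 at +6 h, against 2.28 and 1.85 at -6 h (6.14 ± 0.26, adjusted p = 1.12e-09), and the actin nucleator gene spir had 287 and 337 at +6 h, against 6.43 and 6.05 at -6 h (5.43 ± 0.33, adjusted p = 3.34e-08). All of these libraries at +6 h stood above all of those at -6 h. Among genes that fell, nw, whose loss narrows the wing, had 212 and 175 at +6 h, against 1064 and 1117 at -6 h (-2.495 ± 0.24, adjusted p = 3.76e-06), the lipoprotein receptor gene LRP1 had 33.2 and 35.5 at +6 h, against 255 and 258 at -6 h, after 89.3 and 89.0 at -30 h (-2.87 ± 0.20, adjusted p = 8.9e-08), and Cks30A, a subunit of mitotic kinases, had 4.13 and 4.94 at +6 h, against 45.1 and 44.0 at -6 h (-3.04 ± 0.41, adjusted p = 6.98e-05). Changes of at least 16-fold were called up for 165 genes, 24 of them within reach of gland RNA, and down for 10, 8 of them within reach.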
